A study of Mus musculus with 14 samples.

Results

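The 10 genes described here take up arginine, split or oxidise it, rebuild it from citrulline, and turn its product ornithine into polyamines. Arg1 and Arg2 are the arginases, Nos2 is the inducible nitric oxide synthase, Slc7a1 and Slc7a2 are transporters of arginine, lysine and ornithine, and Ass1 and Asl rebuild arginine. Odc1, Srm and Sat1 make or acetylate polyamines. The members were chosen by name, as all non-control probes whose accession maps to 1 of these 10 symbols. All 10 passed the filter on dim probes, and they stand among 21969 tested features of the array.

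Gene expression was measured on 14 one-colour oligonucleotide arrays of cells sorted from male YARG mice aged 12 to 16 weeks. YARG mice carry a yellow fluorescent protein reporter at the Arg1 locus, and every group carries it. Brain macrophages of injured mice were split by the reporter into an Arg1+ group and an Arg1- group of 4 arrays each. Blood monocytes formed a group from injured mice and a group from normal mice with no treatment, of 3 arrays each. The injury was traumatic brain injury (TBI) by controlled cortical impact, in which a pneumatic piston strikes the brain through an opening in the skull, and cells of injured mice were taken on day 1. No sham-operated array was analysed here. Cells were stained for CD45, CD11b, Ly6G and F4/80 and with a dead-cell dye. Brain cells were freed with enzymes and a Percoll gradient and blood cells with ficoll, so tissue and preparation cannot be told apart in any comparison of brain with blood. The labels number the replicates without saying that they are separate animals, so the p-values measure only the spread between these samples, part of which may be technical. In sorted bulk samples a lower share of cells that express a gene and less RNA per cell cannot be told apart.

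Arginine is the shared substrate of 2 competing enzymes in macrophages. Nitric oxide synthase turns it into nitric oxide and citrulline, a reaction known from classically activated cells, whereas arginase turns it into urea and ornithine, a reaction known from alternatively activated cells and from wound repair. Ornithine feeds the polyamines putrescine, spermidine and spermine and, by another branch, proline for collagen. Cells replace the arginine they use by import through cationic amino acid transporters and by the citrulline cycle, in which Ass1 joins citrulline to aspartate and Asl releases arginine from the product.

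All levels below are log2 of the probe's signal divided by the 75th percentile of its array, so that 0 is the brightness of that percentile, and they rank samples for 1 gene, not genes against each other. Signals under 0.05 of the percentile were raised to that floor, which is -4.32 on the log2 scale. The percentile ran from 119.4 to 418.5 intensity units, 50.1% to 67.2% of probes were well above background, and arrays of 1 group correlated across features at Pearson r 0.937 to 0.985. A feature was called at a limma adjusted p under 0.05 (Benjamini-Hochberg over all 21969 features), and values after ± are standard errors (SE) of the fitted log2 difference unless SD is named. The arrays lay on 4 slides that each held several groups, and residuals of arrays on the same slide correlated at a median r of 0.23, against -0.11 for arrays on different slides. Fits with slide as a block are therefore given beside the brain comparison. Of 8 markers that define macrophages and monocytes, Cd68 had no named probe, and the other 7 (Ptprc, Itgam, Csf1r, Adgre1, Cd14, Lyz2 and Fcgr1) were well above background on every usable array of all 4 groups.

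The first comparison asked how the sorted Arg1+ brain macrophages differ from Arg1- brain macrophages in this pathway. Arg1+ cells carried more RNA for both arginases, for Nos2 and for the transporter Slc7a2, from 1.93-fold for Slc7a2 to 9.51-fold for Arg1. Ass1 and Slc7a1 lay lower in Arg1+ cells on every array, by 1.68-fold and 1.58-fold, without passing the threshold in the fit without slide. Asl, Odc1, Srm and Sat1 overlapped between the brain groups. In total 4 of the 10 genes were called, all higher, where 5.04% of all features were called and 2.14% were called higher. Arg1 is the gene of the sort, so 3 of the 9 genes that the sort did not use were called. The arrays of the brain groups did not overlap for 6 of the 10 genes, 4 higher and 2 lower, and for 14.9% of all features. The median log2 difference was 0.34 over the 10 genes and 0.00 over all features.

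Arg1, the cytosolic arginase, checks the sort and is no independent result. Its log2 level was 6.82, 6.20 and 6.21 in Arg1+ replicates 1, 3 and 4. The spot of Arg1+ replicate 2 was flagged by the scanner software and left out of the fit. In Arg1- replicates 1 to 4 the level was 4.20, 3.94, 2.40 and 2.12. All Arg1+ arrays were thus above all Arg1- arrays, and the Arg1- arrays fell into a higher and a lower pair. The log2 difference was 3.25 ± 0.43 (n = 3 and 4, adjusted p = 0.000526). Arg1- cells also held Arg1 RNA, with a mean level of 3.16 ± 1.06 (SD, n = 4) against -3.48 ± 0.20 (SD, n = 3) in post-TBI monocytes.

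Arg2 encodes the mitochondrial arginase. Its level was 0.63, 0.12, 0.26 and 0.22 in Arg1+ replicates 1 to 4. In Arg1- replicates 1 to 4 it was -0.79, -1.01, -1.33 and -1.12. The groups were far apart relative to their spread, with SDs of 0.22 and 0.23, and the log2 difference was 1.37 ± 0.24 (n = 4 and 4, adjusted p = 0.00379), or 2.58-fold. The difference was positive on each of the 4 slides, at 1.75, 1.05, 1.23 and 1.45 on slides 1 to 4.

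Nos2 competes with the arginases for their substrate, and it too was higher in Arg1+ cells. Its probe was printed 10 times per array, and the average over the spots was -0.92, -0.95, -2.27 and -1.81 in Arg1+ replicates 1 to 4. In Arg1- replicates 1 to 4 it was -2.42, -3.26, -3.82 and -3.56. The groups did not overlap, but the lowest Arg1+ array and the highest Arg1- array lay close together. The log2 difference was 1.77 ± 0.33 (n = 4 and 4, adjusted p = 0.0048), or 3.42-fold. The SD between the 10 spots was 0.08 to 0.20 in Arg1+ arrays and 0.13 to 0.29 in Arg1- arrays, well under the spread between arrays. Only Arg1- replicates 1 and 3 were called well above background, so the level of the other Arg1- arrays is poorly measured. The difference on slides 1 to 4 was 2.63, 0.14, 1.45 and 2.87, so the size varied between slides while the sign did not. With normexp, a model-based background correction that keeps every signal above 0, the difference was 0.89 and the adjusted p was 0.0982.

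**Figure D1:**
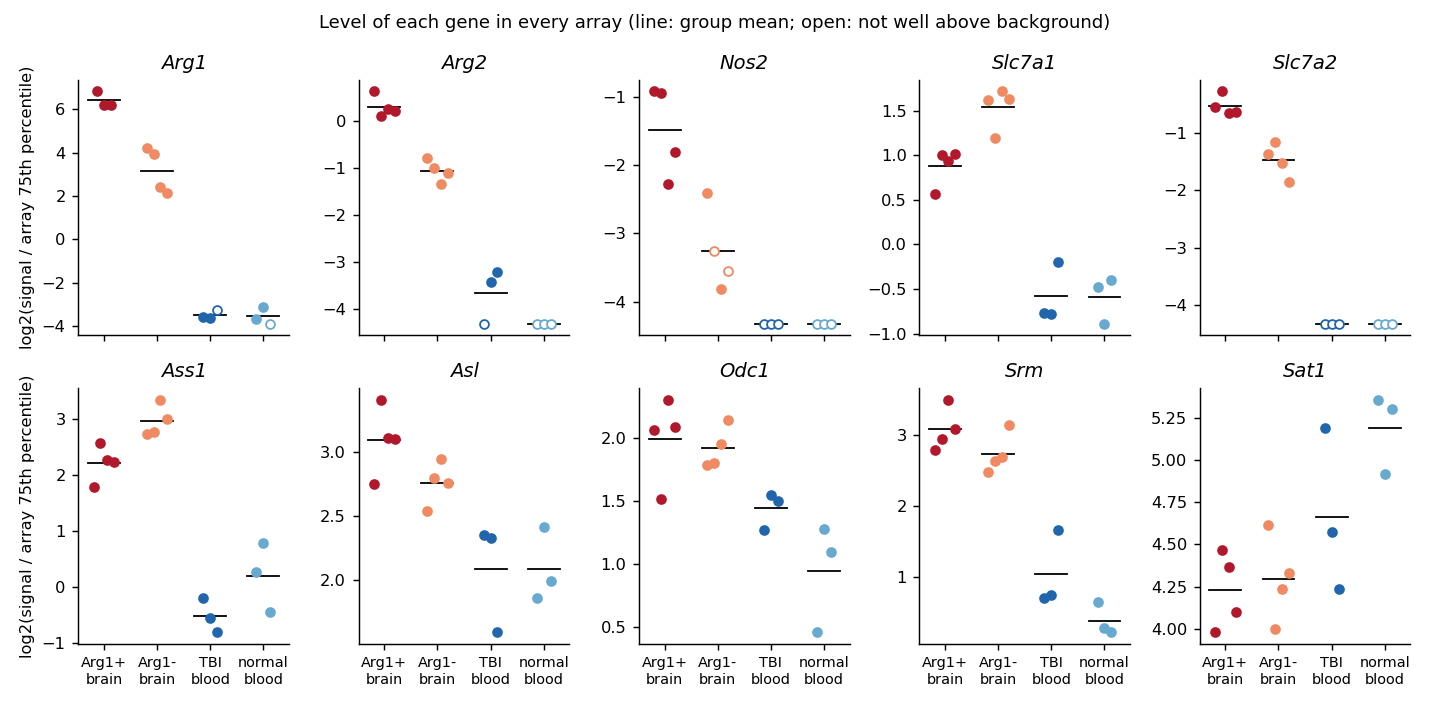
Log2 level of each gene on every array, in the order Arg1+ brain, Arg1- brain, post-TBI blood and normal blood, with the group mean as a line and open points for arrays not well above background. Arg1, Arg2, Nos2 and Slc7a2 form a staircase from Arg1+ brain to Arg1- brain to blood, Ass1 and Slc7a1 peak in Arg1- brain, and Sat1 is highest in normal blood. The scales differ between panels.

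The arginine transporters differed in the sign of their difference. Slc7a2, the transporter known to be induced in activated macrophages, was at -0.55, -0.28, -0.65 and -0.64 in Arg1+ replicates 1 to 4. In Arg1- replicates 1 to 4 it was at -1.38, -1.16, -1.53 and -1.86. The groups did not overlap, and the log2 difference was 0.95 ± 0.20 (n = 4 and 4, adjusted p = 0.0104), positive on all 4 slides (1.31, 0.73, 0.52 and 1.25). The call was lost with normexp background correction (0.66, adjusted p = 0.117) and with a floor of 0.01 (adjusted p = 0.0717).

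Slc7a1, the transporter found in most cell types, was at 0.57, 1.00, 0.93 and 1.02 in Arg1+ replicates 1 to 4. Arg1- replicates 1 to 4 had levels of 1.62, 1.20, 1.72 and 1.63. Every Arg1+ array was below every Arg1- array, with a log2 difference of -0.66 ± 0.19 (n = 4 and 4, adjusted p = 0.0593). The fit that blocks on slide gave the same difference at an adjusted p of 0.0337. The difference was negative on all 4 slides, at -1.06, -0.68, -0.18 and -0.72. A second Slc7a1 probe differed by -0.65 (adjusted p = 0.11). Slc7a1 also passed the threshold without Arg1- replicate 2 (-0.77, adjusted p = 0.0422) and without post-TBI monocyte replicate 4, which enters only through the shared spread (adjusted p = 0.0234). It passed as well with the authors' deposited log2 values refitted here, with the mean of its probes and with the brain arrays alone (adjusted p = 0.0377, 0.0334 and 0.042).

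Ass1, the rate-limiting enzyme of the citrulline cycle, had the same sign as Slc7a1. Its level was 1.79, 2.57, 2.27 and 2.22 in Arg1+ replicates 1 to 4. In Arg1- replicates 1 to 4 it was 2.73, 2.76, 3.35 and 3.00. The groups did not overlap, although the highest Arg1+ array came near the lowest Arg1- arrays. The log2 difference was -0.75 ± 0.25 (n = 4 and 4, adjusted p = 0.111), and the fit that blocks on slide gave an adjusted p of 0.0487. The difference was negative on all 4 slides, at -1.21, -0.46, -0.54 and -0.78. In the fit that blocks on slide 6 of the 10 genes were called, 4 higher, with Arg1 of the sort among them, and 2 lower. Over all 21969 features that fit called 1502, of which 627 were higher and 875 lower.

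Asl, which completes the citrulline cycle, showed no such difference. It was at 2.75, 3.41, 3.11 and 3.10 in Arg1+ replicates 1 to 4 and at 2.54, 2.80, 2.94 and 2.76 in Arg1- replicates 1 to 4. The groups overlapped, and the log2 difference was 0.33 ± 0.20 with a 95% interval from -0.09 to 0.75 (adjusted p = 0.446).

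The stretches upstream of Ass1 and Slc7a1 are shown because these 2 members were the ones that lay lower in Arg1+ cells and higher in brain than in blood. Of the 10 members, 4 (Ass1, Slc7a1, Odc1 and Sat1) matched the RefSeq promoter table, build GRCm38.p6, and the 250 bases before the gene's start were searched in each. The Ass1 stretch is chr2:31470020-31470269 on the plus strand, and the Slc7a1 stretch is chr5:148399905-148400154 on the minus strand. Both are written 5′ to 3′ on the gene's own strand, and capitals mark matches to the motifs searched.
Ass1: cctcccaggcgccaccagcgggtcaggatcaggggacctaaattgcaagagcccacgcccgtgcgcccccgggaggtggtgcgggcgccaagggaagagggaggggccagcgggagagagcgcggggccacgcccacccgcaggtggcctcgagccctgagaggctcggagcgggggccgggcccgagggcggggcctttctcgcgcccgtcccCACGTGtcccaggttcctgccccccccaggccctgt
Slc7a1: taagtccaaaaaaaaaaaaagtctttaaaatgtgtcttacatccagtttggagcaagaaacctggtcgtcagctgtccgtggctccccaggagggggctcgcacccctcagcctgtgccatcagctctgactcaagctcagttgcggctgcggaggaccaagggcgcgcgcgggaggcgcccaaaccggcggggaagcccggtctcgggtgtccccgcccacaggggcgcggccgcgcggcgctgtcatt
The motifs were searched on both strands. They were the E-box CACGTG, which reads alike on both, TGATGNAA, the composite site of C/EBP and ATF factors, and TTGCNNAA, a C/EBP motif. Matches to different motifs were allowed to overlap. Ass1 held 1 CACGTG, centred 33 bases before the start, and none of the other 3 members held a match to any of the motifs in this window. Over 27025 genes with a stretch of the same length, 6.05% held CACGTG, 3.53% held TGATGNAA and 9.55% held TTGCNNAA. These matches describe the letters of the window only.

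The polyamine genes did not separate the brain groups. Odc1, the ornithine decarboxylase that makes putrescine and is rate-limiting, was at 2.06, 1.52, 2.31 and 2.09 in Arg1+ replicates 1 to 4 and at 1.78, 1.81, 1.95 and 2.14 in Arg1- replicates 1 to 4. Its log2 difference was 0.07 ± 0.20 with a 95% interval from -0.35 to 0.50 (adjusted p = 0.935). A second Odc1 probe gave -0.20 (adjusted p = 0.672), so no direction can be read. Srm, the spermidine synthase, was at 2.80, 2.95, 3.51 and 3.09 in Arg1+ replicates 1 to 4 and at 2.48, 2.64, 2.69 and 3.15 in Arg1- replicates 1 to 4. The groups overlapped, and the log2 difference was 0.35 with a 95% interval from -0.14 to 0.83 (adjusted p = 0.502). Sat1, which acetylates spermidine and spermine for breakdown and export, was at 3.98, 4.47, 4.37 and 4.10 in Arg1+ replicates 1 to 4 and at 4.61, 4.00, 4.24 and 4.33 in Arg1- replicates 1 to 4. Its log2 difference was -0.07 with a 95% interval from -0.51 to 0.38 (adjusted p = 0.946). With 4 arrays per group, differences up to the ends of these intervals remain compatible with the data.

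**Figure D2:**
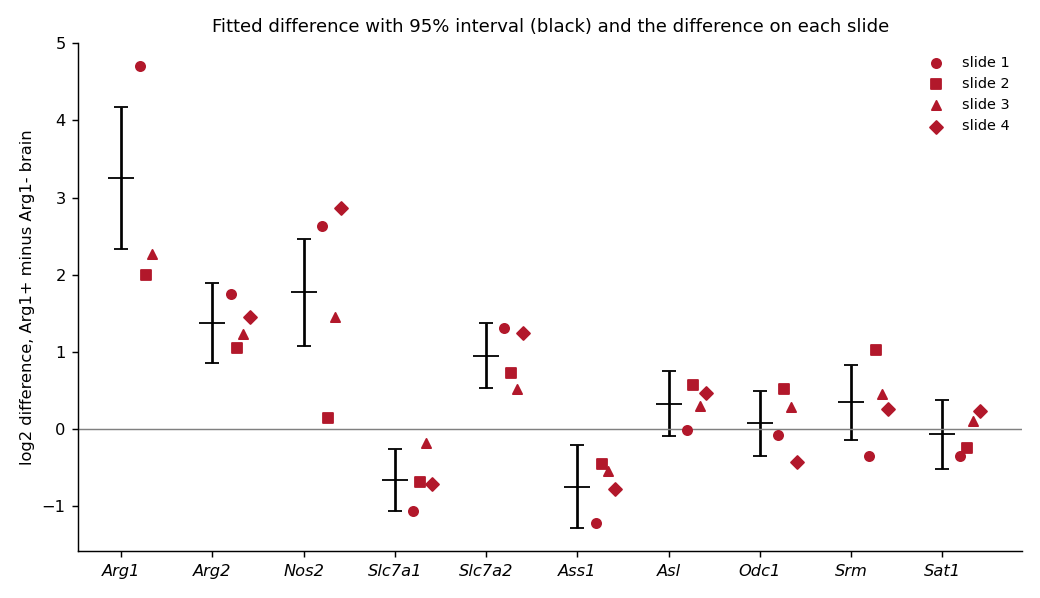
Log2 difference of Arg1+ minus Arg1- brain macrophages for each gene. Black marks are the fitted difference with its 95% interval, and red symbols are the difference between the 2 brain arrays on each slide (Arg1 has no value on slide 4). Arg2, Nos2 and Slc7a2 are above 0 and Ass1 and Slc7a1 below 0 on all 4 slides, and Nos2 has the widest range, from 0.14 to 2.87.

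Markers of other leukocytes moved between the brain groups as well, where 5.04% of all features were called. Of 13 tested neutrophil markers 8 were lower and 1 was higher in Arg1+ cells. The log2 of their summed relative signal was 3.45 to 4.46 in Arg1+ arrays, 5.15 to 7.19 in Arg1- arrays, 4.25 to 6.66 in post-TBI blood and 2.77 to 5.09 in normal blood. A spot left out adds nothing to the sum of its array, so such a sum reads low. Retnlg and Mmp9 were each usable on 2 of the 3 normal blood arrays, and S100a8 on 3 of the 4 Arg1- arrays. The neutrophil protease Elane was not well above background on any Arg1+ array and was above it on all 4 Arg1- arrays. Of 6 tested dendritic cell markers 5 were lower in Arg1+ cells, with sums of -1.43 to -0.97 in Arg1+ arrays, 2.07 to 2.63 in Arg1- arrays, 1.35 to 1.74 in post-TBI blood and 1.09 to 2.08 in normal blood. Among them Kmo was not well above background on any Arg1+ array. Of 7 tested eosinophil markers 4 were lower, with sums of -0.83 to -0.05 in Arg1+ arrays, 2.05 to 2.74 in Arg1- arrays, 5.86 to 6.14 in post-TBI blood and 5.43 to 6.34 in normal blood. The post-TBI blood sum was mostly Ear1, with a mean level of 5.76, followed by Ear6 at 2.90. The other tested eosinophil markers had means there of 0.30 (Ccr3) or lower. Of this list Ccr3 was not well above background on any Arg1+ array and was above it on all 4 Arg1- arrays, and Il5ra was not above it on any brain array. Between the brain groups 1 marker was called higher in each of the astrocyte, neuron, B cell and platelet lists, and 1 was called lower in each of the natural killer cell and macrophage lists. None was called in the microglia, oligodendrocyte, endothelium, T cell and red cell lists. The part of these cells in the differences of the 10 genes was not tested.

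**Figure D3:**
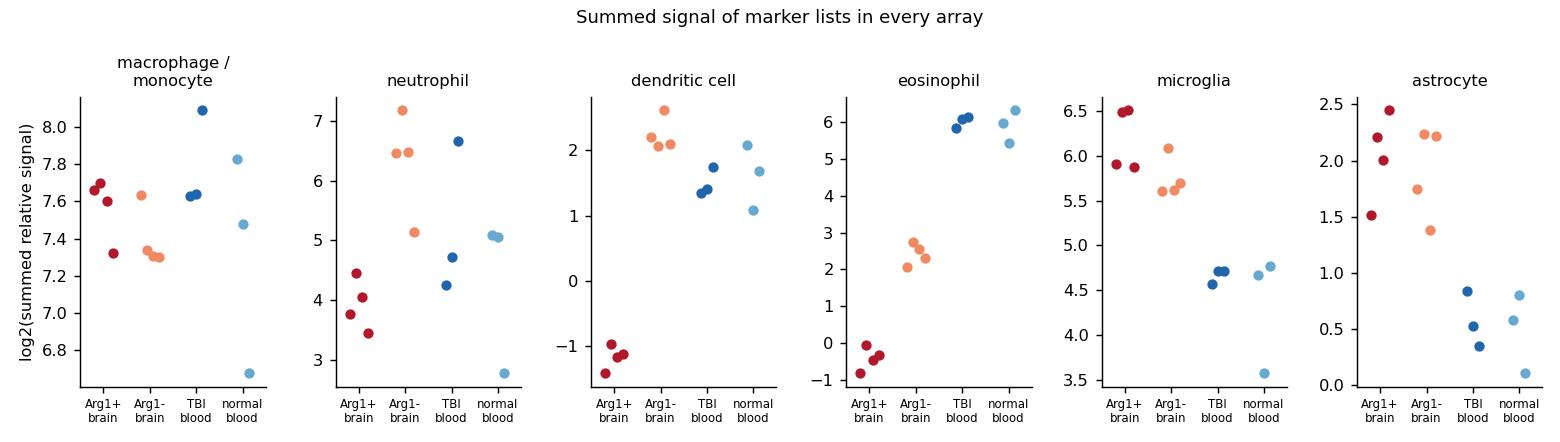
Log2 of the summed relative signal of 6 marker lists on every array, by group. A spot left out adds nothing to the sum of its array. Neutrophil, dendritic cell and eosinophil sums are lower in every Arg1+ array than in every Arg1- array, and microglia and astrocyte sums are higher in every brain array than in every blood array. The scales differ between panels.

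The second comparison asked whether injury changed the pathway in circulating monocytes. None of the 10 genes was called by limma, where 0.15% of all features were called, and 5 of the 10 had an unadjusted p under 0.05 (Arg2, Ass1, Odc1, Srm and Sat1), as had 6.49% of all features. The arrays did not overlap for 1 of the 10 genes, Srm, and for 9.26% of all features. Srm was at 0.70, 0.74 and 1.66 in post-TBI replicates 1, 3 and 4 and at 0.64, 0.28 and 0.21 in normal replicates 2, 3 and 4. The highest value came from post-TBI replicate 4, and the log2 difference was 0.65 ± 0.26 (n = 3 and 3, adjusted p = 0.663).

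Ass1 was at -0.20, -0.56 and -0.81 in post-TBI replicates 1, 3 and 4 and at 0.27, 0.79 and -0.46 in normal replicates 2, 3 and 4. The groups overlapped, and the log2 difference was -0.72 with a 95% interval from -1.34 to -0.11 (adjusted p = 0.659). Odc1 was at 1.27, 1.55 and 1.50 in post-TBI replicates and at 0.46, 1.28 and 1.10 in normal replicates, a difference of 0.50 with an interval from 0.01 to 0.99 (adjusted p = 0.759). Sat1 was at 5.19, 4.57 and 4.23 in post-TBI replicates and at 5.36, 4.92 and 5.30 in normal replicates, a difference of -0.53 with an interval from -1.04 to -0.01 (adjusted p = 0.759). The groups overlapped for each of these 3 genes, and none passed after adjustment. No marker of any cell type list was called between the blood groups either, where 0.15% of all features were called. The log2 summed signal of platelet markers still did not overlap, at 3.32 to 4.25 after TBI and 2.28 to 2.96 in normal mice. Nor did that of B cell markers, at 2.65 to 2.68 and 2.23 to 2.49, whereas the sums of the other lists overlapped. The part of these cells in the blood values was not tested.

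The enzymes that use arginine were near or under background in blood. Arg1 was well above background on 2 of the 3 arrays of each blood group, at -3.58, -3.62 and -3.25 after TBI and -3.67, -3.13 and -3.90 in normal mice. Arg2 was at the floor on all 3 normal arrays and well above background on 2 of 3 post-TBI arrays, at -4.32, -3.44 and -3.23 (difference against the floor 0.66, adjusted p = 0.701). Nos2 and Slc7a2 were not well above background on any of the 6 blood arrays, so no change after injury could be measured for them. Asl and Slc7a1 were measured on all 6 blood arrays, and the 95% intervals of their differences ran from -0.49 to 0.49 and from -0.46 to 0.47.

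The last comparisons set each brain population against post-TBI monocytes. Both use the same 3 blood arrays, so their values are given side by side and are not independent. In Arg1+ cells 8 of the 10 genes were called, all higher, where 39.9% of all features were called and 19.9% were called higher. In Arg1- cells 8 of the 10 were called, all higher, where 33.4% of all features were called and 17% were called higher. Both counts include Nos2 and Slc7a2, which passed the filter on dim probes through brain arrays alone. Their blood arrays were all at the floor, so these differences could not be negative. The genes not called were Odc1 and Sat1 in both comparisons. The median log2 difference of the 10 genes was 2.40 for Arg1+ cells and 1.91 for Arg1- cells, against -0.03 and -0.02 over all features.

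The arginases and Nos2 rose from blood to brain in both populations. Arg1 differed by 9.90 ± 0.46 in Arg1+ cells (n = 3 and 3, adjusted p = 1e-09) and by 6.65 ± 0.43 in Arg1- cells (n = 4 and 3, adjusted p = 5.87e-08), with 1 of the 3 blood arrays not well above background. Arg2 differed by 3.97 ± 0.26 (adjusted p = 1.81e-08) and by 2.60 ± 0.26 (adjusted p = 2.92e-06), again with 1 of the 3 blood arrays not above background. Nos2 was at least 7.12-fold higher in Arg1+ cells than the blood arrays' limit of measurement (adjusted p = 1.32e-05). In Arg1- cells the fitted log2 difference was 1.06 ± 0.35 (adjusted p = 0.0304), which is no bound, since 2 of the 4 brain arrays were not above background either. Leaving out Arg1- replicate 1 or 2, or any post-TBI array, ended this last call, with adjusted p from 0.0528 to 0.0913. It was also lost with normexp (0.46, adjusted p = 0.304), with quantile normalization (adjusted p = 0.0567) and without the filter on dim probes (adjusted p = 0.0708). For each fold given as "at least", a dim array was set to the higher of its own signal, floor included, and the lowest signal at which any probe of that array was well above background. Such folds hold for the processed signal only. With normexp the log2 differences of Arg1 were 7.88 in Arg1+ and 4.79 in Arg1- cells, those of Arg2 were 2.33 and 1.34, and that of Nos2 in Arg1+ cells was 1.34, all still called. With a floor of 0.01 Nos2 differed by 4.46 in Arg1+ cells and by 2.68 in Arg1- cells.

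The transporters and the citrulline cycle were higher in brain too. Slc7a2 was at least 13.8-fold higher in Arg1+ cells (adjusted p = 2.78e-09) and at least 7.17-fold higher in Arg1- cells (adjusted p = 1.25e-07). The log2 difference of Slc7a2 was 1.97 and 1.31 with normexp and 5.35 and 4.40 with a floor of 0.01, called in each, so its size rests on how signal near background is handled. Slc7a1 was at -0.76, -0.77 and -0.20 in post-TBI replicates 1, 3 and 4, below every brain array, and differed by 1.46 ± 0.20 in Arg1+ cells (adjusted p = 4.21e-05) and 2.12 ± 0.20 in Arg1- cells (adjusted p = 1.8e-06). Its second probe differed by 0.58 (adjusted p = 0.0617) and 1.24 (adjusted p = 0.00089), so the call in Arg1+ cells depends on the probe. Ass1 differed by 2.74 ± 0.27 (adjusted p = 1.35e-06) and 3.48 ± 0.27 (adjusted p = 1.94e-07). The rise of Asl was smaller, at 1.00 ± 0.21 (adjusted p = 0.00158) and 0.67 ± 0.21 (adjusted p = 0.0243), from blood levels of 2.35, 2.33 and 1.60. The lowest of these was post-TBI replicate 4, and without it the difference in Arg1- cells was 0.42 (adjusted p = 0.118). Without Arg1- replicate 3 it was 0.61 (adjusted p = 0.0626), and it also missed the threshold with normexp, without the filter on dim probes and with the arrays of the 2 groups alone (adjusted p = 0.0651, 0.0508 and 0.0518).

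Among the polyamine genes only Srm was called in both comparisons. It differed by 2.05 ± 0.25 in Arg1+ cells (adjusted p = 9.74e-06) and by 1.71 ± 0.25 in Arg1- cells (adjusted p = 8.42e-05). Odc1 differed by 0.55 ± 0.21 (adjusted p = 0.0517) and 0.48 ± 0.21 (adjusted p = 0.102). Its second probe differed by 0.98 (adjusted p = 0.00129) and 1.18 (adjusted p = 0.000374), so whether Odc1 passes depends on the probe read, and also on the setting. In Arg1+ cells the first probe also passed in the fit that blocks on slide (0.63, adjusted p = 0.0368) and without Arg1+ replicate 2 (0.71, adjusted p = 0.0142). There it passed too without normal replicate 2 or 3 (adjusted p = 0.0295 and 0.0462). A filter asking for every array of a group above background gave an adjusted p of 0.0475. With the replicate number as a block, the first probe passed in both populations (0.67 and 0.60, adjusted p = 0.00706 and 0.0166). Sat1 was the member with the opposite sign, at -0.44 ± 0.23 (adjusted p = 0.144) and -0.37 ± 0.23 (adjusted p = 0.24). In Arg1+ cells it passed as lower with quantile normalization (-0.64, adjusted p = 0.0311), with the authors' deposited log2 values refitted here (-0.70, adjusted p = 0.0197) and without post-TBI replicate 4 (-0.65, adjusted p = 0.0326). A second Sat1 probe was left out of the fit, since its spots were flagged on every post-TBI array and usable on only 1 Arg1- array. With flagged spots kept, every brain array lay below every post-TBI array on that probe. The highest levels were 4.12 in brain and 5.14 in post-TBI blood. They rest largely on flagged spots, and the difference was not tested.

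**Figure D4:**
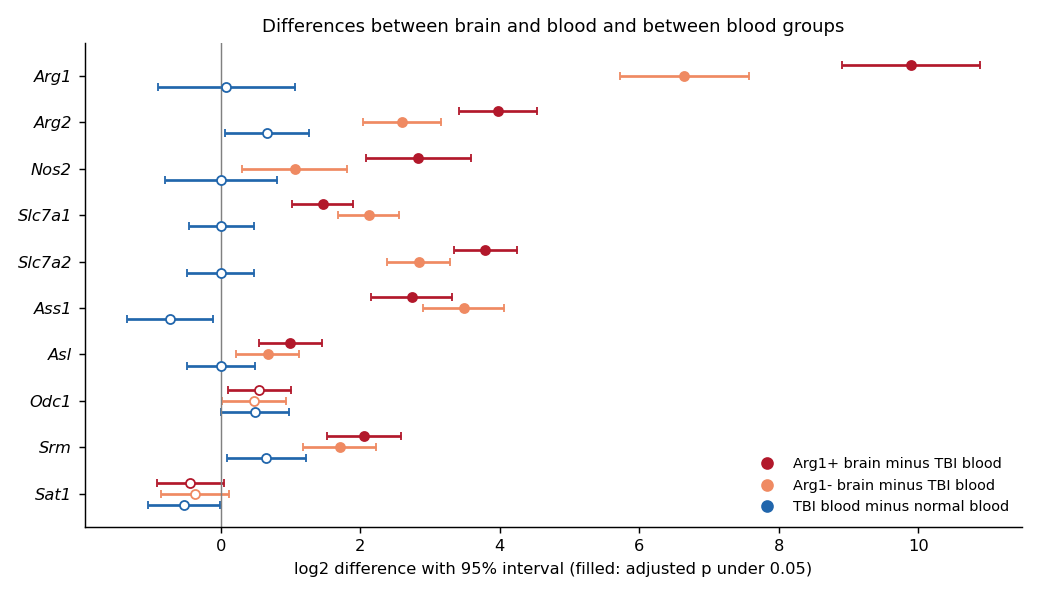
Fitted log2 difference with its 95% interval for each gene, for Arg1+ brain minus post-TBI blood, Arg1- brain minus post-TBI blood and post-TBI minus normal blood. Filled points have an adjusted p under 0.05. Arg1 has the greatest difference of the 10 in both brain comparisons, Slc7a1 and Ass1 lie further right for Arg1- than for Arg1+ cells, and no blood point is filled. Differences against Nos2 and Slc7a2 in blood are against the floor.

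Markers of tissue and blood cells moved with the brain and blood comparisons. Against post-TBI blood 39.9% of all features were called for Arg1+ cells and 33.4% for Arg1- cells. Of 11 microglia markers 9 were higher in Arg1+ cells and 8 in Arg1- cells than in post-TBI blood, and 1 was lower in each. Their sums were 5.88 to 6.51 in Arg1+ arrays, 5.61 to 6.08 in Arg1- arrays, 4.57 to 4.72 in post-TBI blood and 3.57 to 4.77 in normal blood, and Siglech was not well above background on any blood array. Cx3cr1 of this list was usable on 2 of the 3 normal blood arrays and 3 of the 4 Arg1- arrays. Where its spot was left out, the sum reads low. Of 8 tested astrocyte markers 6 were higher in Arg1+ cells and 2 in Arg1- cells, with sums of 1.52 to 2.45 and 1.39 to 2.23 against 0.35 to 0.84 in post-TBI blood and 0.11 to 0.81 in normal blood. Slc1a2 and Gja1 of this list were not well above background on any blood array. Of 13 tested neutrophil markers 2 rose and 4 fell from post-TBI blood to Arg1+ cells, and 8 rose and 2 fell to Arg1- cells. Of 6 tested dendritic cell markers 5 were lower in Arg1+ cells, and in Arg1- cells 1 was higher and 1 lower. Of 7 tested eosinophil markers 4 were lower in Arg1+ cells and 2 in Arg1- cells. Of 7 tested B cell markers 5 were lower in Arg1+ and 6 in Arg1- cells, with 1 higher in each, and of 5 tested T cell markers 3 were lower in each. Of 5 tested platelet markers 3 were lower in Arg1+ and 4 in Arg1- cells, and of 8 tested natural killer cell markers 3 and 1 were lower. Of 8 tested neuron markers 4 were higher in Arg1+ and 3 in Arg1- cells, with 1 lower in each. Of 6 tested oligodendrocyte markers 2 and 1 were higher and 1 lower in each, and of 6 tested endothelium markers 3 and 2 were higher and 1 lower in each. Of the 7 tested macrophage markers 2 were higher in each, 1 was lower in Arg1+ cells and 2 were lower in Arg1- cells. All 3 tested red cell markers were lower in both brain populations, with sums of -1.61 to 0.23 and -0.83 to -0.09 against 6.02 to 6.94 in post-TBI blood and 3.03 to 6.15 in normal blood. Their part in the differences of the 10 genes was not tested.

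Across the 4 groups the means of Arg1, Arg2, Nos2 and Slc7a2 ran from Arg1+ brain to Arg1- brain to blood. In the fit without slide the step between the brain groups and that from Arg1- brain to post-TBI blood were called. For Arg1 the brain step is the sort itself. The calls of Nos2 at both steps and of Slc7a2 between the brain groups were lost in some settings. For Ass1 and Slc7a1 the means ran from Arg1- brain to Arg1+ brain to blood, and the step between the brain groups was called in the fit that blocks on slide. The means of Asl and Srm were higher in both brain groups than in post-TBI blood, and their brain groups overlapped. Odc1 had the same order of means with its brighter probe, whose step from post-TBI blood to Arg1+ brain was called in the fit that blocks on slide. With its second probe both steps from post-TBI blood were called and the order of the brain groups turned. For Sat1 the order turned on its fitted probe, with overlap at each step. It ran from normal blood (5.19 ± 0.24, SD, n = 3) over post-TBI blood (4.66 ± 0.48, SD, n = 3) to Arg1- brain (4.30 ± 0.26, SD, n = 4) and Arg1+ brain (4.23 ± 0.23, SD, n = 4).

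The wider pathway was read from 59 further genes, of which 50 were tested. Between the brain groups 2 of the 50 were called, both higher in Arg1+ cells, a share near the 5.04% of all features. Ddah2, which breaks down methylated arginines that inhibit nitric oxide synthase, differed by 0.84 ± 0.22 (adjusted p = 0.0395). P4ha2, a subunit of the prolyl hydroxylase that matures collagen, differed by 2.51 ± 0.30 (adjusted p = 0.000152), with 3 of the 4 Arg1- arrays above background. The median difference of the 50 was 0.14. In blood after injury limma called none of the 50. From post-TBI blood to Arg1+ cells 19 of the 50 rose and 5 fell, where 39.9% of all features were called. To Arg1- cells 18 rose and 7 fell, where 33.4% of all features were called.

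Of 7 tested transport partners, 3 rose and 1 fell from post-TBI blood to Arg1+ cells, and 5 rose and 1 fell to Arg1- cells. Shares called over all features were 39.9% and 33.4%. Slc7a11, the cystine-glutamate exchanger, was not above background on any blood array and was at least 53.4-fold higher in Arg1+ cells (adjusted p = 2.71e-10) and at least 32.9-fold higher in Arg1- cells (adjusted p = 1.84e-09). Its partner chain Slc3a2 differed by 2.41 ± 0.34 and 2.21 ± 0.34 (adjusted p = 0.000178 and 0.000455), with only 2 usable arrays in each brain group. Slc7a7, which exports arginine in exchange for neutral amino acids, differed by 1.11 ± 0.16 and 0.67 ± 0.16 (adjusted p = 7.32e-05 and 0.00546). Slc7a5 and Slc7a6 passed in Arg1- cells, at 1.74 ± 0.40 and 1.23 ± 0.36 (adjusted p = 0.00322 and 0.0164), and not in Arg1+ cells, at 0.78 and 0.86. Between the brain groups every Arg1+ array was below every Arg1- array for Slc7a5 and the groups overlapped for Slc7a6, with differences of -0.96 and -0.37 that did not pass (adjusted p = 0.167 and 0.68). Slc38a9, a lysosomal arginine sensor, was lower, at -1.57 ± 0.18 and -1.24 ± 0.18 (adjusted p = 6.02e-06 and 8.77e-05).

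Of 10 tested enzymes of arginine and ornithine, 4 rose from post-TBI blood to Arg1+ cells, and 3 rose and 1 fell to Arg1- cells. For this list and the proline list below, the shares called over all features were 39.9% and 33.4%. Gatm, which uses arginine to start creatine synthesis, differed by 2.18 ± 0.23 in Arg1+ cells and 1.96 ± 0.23 in Arg1- cells (adjusted p = 3.22e-06 and 1.46e-05). Ddah2 differed by 2.04 ± 0.24 and 1.21 ± 0.24 (adjusted p = 6.8e-06 and 0.0011). Oat, which passes ornithine towards proline, differed by 0.79 ± 0.23 (adjusted p = 0.0144) and 0.37 ± 0.23 (adjusted p = 0.252). Azin2, an antizyme inhibitor, was lower in Arg1- cells at -1.78 ± 0.45 (adjusted p = 0.00673). In the 7 tested genes around proline and collagen, 3 were higher in Arg1+ cells and 4 in Arg1- cells. P4ha1 differed by 2.01 ± 0.19 and 1.49 ± 0.19 (adjusted p = 7.18e-07 and 2.31e-05). Aldh18a1, the first enzyme from glutamate to proline, differed by 0.67 ± 0.26 (adjusted p = 0.055) and 1.18 ± 0.26 (adjusted p = 0.00277).

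Of 20 tested genes of polyamine synthesis, breakdown and control, 7 rose and 2 fell from post-TBI blood to Arg1+ cells. To Arg1- cells 5 rose and 3 fell. Shares called over all features were 39.9% and 33.4%. Adi1 had the largest called difference of this list in Arg1+ cells, at 1.92 ± 0.27, and differed by 1.12 ± 0.27 in Arg1- cells (adjusted p = 4.27e-05 and 0.00472). It was not above background on any post-TBI blood array. Paox, which oxidises acetylated polyamines, differed by 1.55 ± 0.19 and 1.21 ± 0.19 (adjusted p = 1.27e-05 and 0.000198). Azin1, which protects ornithine decarboxylase from breakdown, differed by 1.25 ± 0.21 and 1.21 ± 0.21 (adjusted p = 0.000246 and 0.000459). Dhps, which uses spermidine to make the hypusine of the translation factor Eif5a, differed by 1.22 ± 0.22 and 1.36 ± 0.22 (adjusted p = 0.000364 and 0.000201). Eif5a2, a paralog of Eif5a, fell by 1.48 ± 0.43 in Arg1- cells (adjusted p = 0.0147), where 1 of the 4 arrays was above background, and differed by -0.29 in Arg1+ cells (adjusted p = 0.649). Oaz2, an antizyme that inhibits ornithine decarboxylase, was named after its values were seen, and fell by 0.93 ± 0.15 and 1.06 ± 0.15 (adjusted p = 0.000132 and 5.9e-05).

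Of 6 tested genes of tetrahydrobiopterin, the cofactor of nitric oxide synthase, 2 rose and 2 fell from post-TBI blood to Arg1+ cells. To Arg1- cells 1 rose and 2 fell. Shares called over all features were 39.9% and 33.4%. Gch1, the first enzyme of its synthesis, differed by 0.38 ± 0.21 in Arg1+ cells (adjusted p = 0.172) and by 0.81 ± 0.21 in Arg1- cells (adjusted p = 0.00817). Pts, the second enzyme, was lower, at -1.63 ± 0.18 and -2.10 ± 0.18 (adjusted p = 5.23e-06 and 6.82e-07). Gchfr, the feedback regulator of Gch1, was not well above background on any brain array and was at least 7.06-fold lower in Arg1+ cells and at least 7.5-fold lower in Arg1- cells than in post-TBI blood (adjusted p = 1.36e-05 and 3.08e-05). The genes of this cofactor did not share 1 direction.

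**Figure D5:**
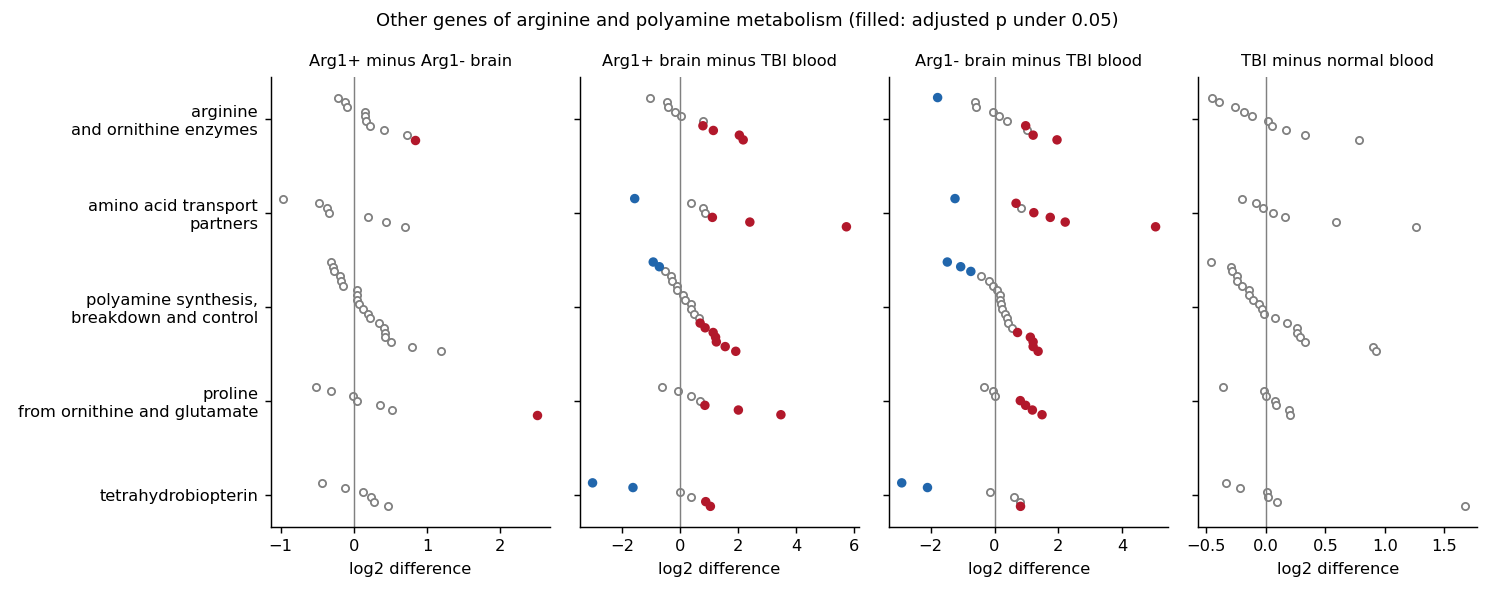
Log2 differences of the 50 further tested genes by list, in 4 comparisons. Filled points have an adjusted p under 0.05, red for higher and blue for lower. Between the brain groups 2 points are filled, between the blood groups none, and against blood both colours occur, except in the proline list, which holds no lower call.

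The genes whose levels followed each member most closely over the arrays were found by Pearson r, as a description. All 14 points share the step from blood to brain, so a high r may carry little beyond that step. Arg1 was closest to Dhrs9 (r = 0.996 over 13 arrays), Cxcl3 and Tmeff1. Arg2 was closest to Lgmn (r = 0.99), Naglu and Txnrd1, and Slc7a2 to Iqgap3 (r = 0.996), Hyal1 and Lrp12. The nearest genes to Nos2 were Flrt2 (r = 0.965), P4ha2 (r = 0.964) and Tnfrsf23. Ass1 was nearest to Creb5 (r = 0.981) and Slc7a1 to Abl2 (r = 0.975), and Zmynd15 came second for both. Asl was nearest to Nus1 (r = 0.975) and Srm to Rgs10 (r = 0.987). The closest match was looser for Odc1, with Mvb12b (r = 0.919), and for Sat1, with Mier1 (r = 0.936).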

How the data were processed

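RNA from sorted cells was amplified, labelled with Cy3 and hybridised, 1 sample per array, per the labels' protocols. Per the file headers, the scanner files were made with Feature Extraction 10.7.3.1 and give a processed signal intensity, background-subtracted but not scaled between arrays, beside the intensity of spot and local background. Other deposited values are flags of 0 or 1 per spot. The authors' deposited value table holds log2 values that rank spots within an array as the median spot signal does, with medians of 6.16 to 6.19 in every column and no direction, since these are levels. Its centring and normalization are not given in the sources used here, and the submitters' processing notes name limma without a version.

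The processed signal was divided by the 75th percentile of the non-control probes of its array, floored at 0.05 and log2 transformed. Flagged non-uniform or outlier spots, 200 to 728 per array, were left out, and spots of 1 probe were averaged. No spot was saturated. Of 41174 probes, 24844 were named through their accession with a RefSeq table (GRCm38.p6, used for names; the arrays' annotation is mm9). Dropped were 464 probes with under 2 usable arrays in a group and 13101 probes well above background on under 3 arrays. The brightest kept probe stood for each symbol, which left 21969 features. A probe may also bind RNA of a close paralog, and strand is not recorded.

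All 14 arrays entered 1 limma 3.58.1 fit (R 4.3.3) with lmFit and two-sided tests from eBayes, an intensity trend and 10 residual degrees of freedom. Precision is limited by the number of arrays, which is 3 or 4 in each group. The fit was tested on simulated data with independent noise on each array. That simulation held no correlation between arrays on the same slide, so it cannot show how the fit handles it. The members, the pathway and marker lists and the rules were chosen with earlier results of these data known. Pathway genes named beyond the 10 members were drawn from those called in at least 1 comparison, at most 5 per list and comparison by size. Oaz2 was added after its values were seen. Features named for their r were drawn from the 3 with the highest r for each member. Not every gene that met these rules is named. Alternatives covered background correction, normalization, the authors' table, filters, floor, probe choice, flagged spots, slide and replicate blocks, the variance model, the arrays in the fit and leaving out each array.

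The labels do not say that samples with the same replicate number are paired. Arrays with the same number correlated in their residuals at r from -0.46 to 0.40 (18 pairs, median -0.15). Nearly all of these pairs lay on different slides, so the correlations cannot settle whether the numbers pair the samples.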

Additional observations from a re-analysis of the deposited data

How the results depend on the processing

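Among the 10 genes, the count called between the brain groups was 4 and became 2 with normexp background correction. It was 6 with slide as a block, where 1502 of all 21969 features were called, and 4 to 5 without any 1 array. In blood after injury it was 0 in each of these settings, and against post-TBI blood it was 8 to 9 for Arg1+ cells and 6 to 8 for Arg1- cells without any 1 array. Those refits against blood called 7276 to 8677 of all 21969 features for Arg1+ cells and 5857 to 7531 for Arg1- cells. Over all features the brain comparison called 1108, and 525 with normexp, which moved the median of all features by 0.14 there and by 0.17 for Arg1+ cells against blood. Leaving out 1 array gave 602 to 1790, the lowest without Arg1- replicate 3 and the highest without post-TBI monocyte replicate 4. The blood comparison called 33 features, of which 72.7% were higher. It called 15 with normexp, 20 with the authors' deposited log2 values (60% higher), 0 with the arrays of those 2 groups alone and 2 to 60 without 1 array, the lowest without post-TBI replicate 3 and the highest without post-TBI replicate 1. The cause was not tested.

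The fit with the replicate number as a block, whose numbers are not known to pair the samples, called 830 features and 4 of the 10 genes between the brain groups. It called 2 features in blood.

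Signs turned only for uncalled differences near 0. Odc1 between the brain groups was -0.065 with the mean of its probes and -0.20 with its other probe, a setting chosen after seeing the data, and ran from -0.029 to 0.23 without 1 array, turning without Arg1+ replicate 3. Sat1 ran from -0.17 to 0.039 without 1 array, turning without Arg1+ or Arg1- replicate 1. In blood after injury Arg1 was -0.018 with normexp and -0.053 with the authors' values, and ran from -0.085 to 0.30 without 1 array, turning without normal or post-TBI replicate 4. Asl was 0.0056 with normexp, 0.0023 with quantile normalization and 0.053 with the replicate block, and ran from -0.13 to 0.25 without 1 array, turning without normal replicate 3 or post-TBI replicate 4. Slc7a1 was -0.050 with normexp and -0.054 with the authors' values, and ran from -0.18 to 0.10 without 1 array, turning without the same arrays as Asl. Signal near background limits Nos2 in Arg1- cells and Arg1, Arg2, Nos2 and Slc7a2 in blood.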
